A study of Homo sapiens with 16 samples.

Results

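The 16HBE-ex14 cells described here differ from 16HBE-WT cells by a METex14 genome edit, and they were compared with them in the absence of HGF, the ligand of MET. The arrays compared were taken by their labels: the 4 arrays of untreated 16HBE-ex14 cells and the 4 arrays of untreated 16HBE-WT cells, 8 of the 16 arrays of the series. 16HBE cells are bronchial epithelial cells of human origin, immortalised with the SV40 large T antigen, which both groups share. The 16HBE-ex14 cells came from a single clone (clone F), obtained with Cas9 and a guide RNA at the splice donor of MET exon 14, puromycin selection and limiting dilution, whereas 16HBE-WT is the unedited line. Differences carried by this clone for other reasons and differences that follow from the MET edit therefore cannot be told apart. Both groups had been starved of serum for 2 h and kept for a further 24 h without HGF. The other 8 arrays hold the same cells given HGF at 20 ng/mL for 24 h (16HBE-WT+HGF and 16HBE-ex14+HGF). The study describes weekly cultures, but the labels do not tie an array to a culture.

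MET is the receptor tyrosine kinase of hepatocyte growth factor (HGF). Ligand binding brings receptors together, their kinase domains become phosphorylated, and adaptors such as GRB2 and GAB1 connect the receptor to ERK and PI3K signalling, which in epithelial cells drives scattering, migration and survival. Exon 14 encodes part of the juxtamembrane domain, with the docking tyrosine of the ubiquitin ligase CBL, and transcripts that skip it are found in some lung cancers. The comparison asks which genes differ between the clone and the parental cells before any ligand is added.

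Each array carried probes of 60 bases, and values are log2 signals relative to the 75th percentile of the array, so that a difference of 1 is a doubling. The 75th percentile itself was 155 to 211 intensity units on the 16HBE-WT arrays and 209 to 239 on the 16HBE-ex14 arrays (difference of means 0.37 on the log2 scale, exact permutation test, two-sided, p = 0.057, where the smallest possible p is 0.029). Between 50.9% and 57.0% of probes were well above background on these 8 arrays. Pearson's r between arrays over the tested probes was 0.983 to 0.989 within a group and 0.976 to 0.983 between the groups. All 8 markers of bronchial epithelium that were examined (EPCAM, CDH1, KRT8, KRT18, KRT19, KRT5, TP63 and KRT7) were well above background on all 8 arrays. Among the markers of other cell types, COL1A2, COL3A1, DCN, PDGFRA and THY1 of fibroblasts and PECAM1, KDR and CLDN5 of endothelium were not well above background on any, whereas COL1A1 and PDGFRB of fibroblasts, CDH5 and VWF of endothelium, and PTPRC, CD3E and CD14 of leukocytes were on all 8. Of these 7, CD3E alone was called (-0.98, adjusted p = 0.024). The summed signal of the 8 fibroblast markers was 0.583 to 1.11 on 16HBE-WT arrays and 0.358 to 0.531 on 16HBE-ex14 arrays, in multiples of the 75th percentile, against 1761 to 2154 for the epithelial markers over all 8 arrays. Within that list LUM was well above background on all 4 16HBE-WT arrays and on none of the 16HBE-ex14 arrays. The endothelial markers summed to 0.459 to 0.631 in 16HBE-WT and 0.418 to 0.564 in 16HBE-ex14 cells, and the leukocyte markers to 0.796 to 1.30 and 0.655 to 1.07. The 4 neuroendocrine markers summed to 0.194 to 0.292 and 0.396 to 0.632, with CHGA (chromogranin A) higher in 16HBE-ex14 cells (1.68, adjusted p = 0.00012). The part of these markers in the differences below was not tested. In bulk RNA, fewer cells of a kind and less RNA per cell cannot be told apart.

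Of 34600 tested probes, those whose signal was clearly over background on 4 or more of 16 arrays, 3263 (9.43%) were called different, with a limma adjusted p below 0.05 and a fold change above 1.5. In 16HBE-ex14 cells 1556 were higher and 1707 lower, 1118 differed more than 2-fold and 183 more than 4-fold, and on 2949 of the called probes the 4 arrays of one group did not overlap the 4 of the other. The balance of directions depends on the scaling: 47.7% of calls were higher here, but 71.5% with arrays scaled to their medians, which moved the median difference of all probes from -0.02 to 0.12, and 67.8% with scaling to the E1A spike-in RNA. Counted once per gene by its brightest probe, 1182 of 26368 genes (4.48%) were called higher and 1259 (4.77%) lower, and these shares are the background for the counts of gene lists below. The 4 arrays of one group lay apart from those of the other for 5555 genes (21.1%), whether or not they were called.

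**Figure D1:**
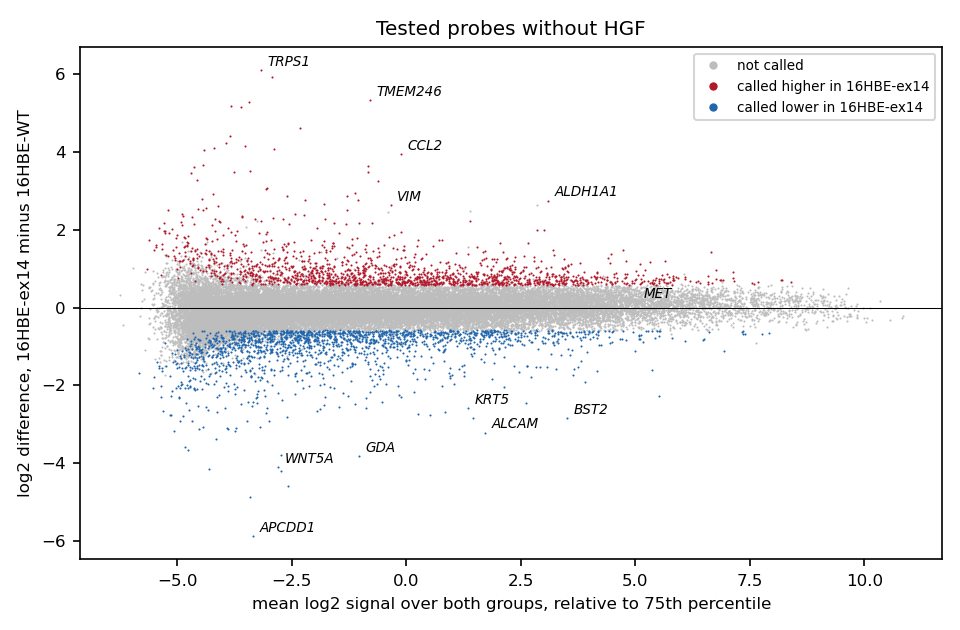
Log2 difference between 16HBE-ex14 and 16HBE-WT cells without HGF (vertical axis) against the mean log2 signal of both groups (horizontal axis), 1 point per tested probe outside chromosome Y; red points were called higher, blue points lower, grey points not called. Of the 34600 tested probes 3263 were called, and MET sat at 0.13. TRPS1, APCDD1 and WNT5A were not well above background in one group, so their plotted heights are not measured differences.

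MET mRNA was not called different. Its probe (hg19 chr7:116438290-116438349, near the 3′ end of the gene and far from exon 14) read 4.83, 4.86, 5.19 and 5.03 on the 16HBE-WT arrays and 4.92, 5.07, 5.27 and 5.19 on the 16HBE-ex14 arrays. The groups overlapped, with a difference of 0.13 ± 0.11 (log2, SE; limma adjusted p = 0.46), and because the probe lies outside the skipped exon it checks neither the edit nor the labels. Both HGF probes were not well above background on any of the 8 arrays. Of 23 genes of MET activation and signalling, which include the HGF-activating protease ST14 and its inhibitors SPINT1 and SPINT2, the adaptors GRB2, GAB1 and SHC1, the phosphatase PTPN11 and the ligases CBL and CBLB, 21 could be tested, none was called higher and 1 was called lower. That gene was LRIG1, a transmembrane protein that promotes the degradation of EGF receptors and is also known to act on MET. LRIG1 read 0.63, 0.57, 0.78 and 0.72 on 16HBE-WT arrays and -1.62, -1.91, -1.72 and -1.71 on 16HBE-ex14 arrays, a 5.33-fold lower level with no overlap (-2.42 ± 0.10, adjusted p = 1.44e-09; -1.70 with normexp). The other 20 members lay between -0.31 (STAT3) and 0.35 (GAB1), and none of them passed the test.

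Genes that ERK signalling induces, or that feed back on it, were called in 5 of 26 cases, 4 higher and 1 lower. Without 16HBE-WT replicate 1, 16HBE-ex14 replicate 3 or 16HBE-ex14 replicate 4, and also with no filter, 2 were higher. DUSP5, a phosphatase that inactivates nuclear ERK, read 0.15, -0.08, 0.65 and -0.03 in 16HBE-WT cells and 1.09, 1.51, 0.82 and 1.28 in 16HBE-ex14 cells, with no overlap (1.01 ± 0.24, adjusted p = 0.0096). PHLDA1 (0.84 ± 0.16), the cytokine LIF (0.67 ± 0.20) and the AP-1 subunit FOSL1 (0.60 ± 0.20) were the other 3 higher genes, and the ephrin receptor EPHA4 was lower (-0.61 ± 0.17), a call that was lost with scaling to medians or E1A, with normexp, with no filter, with only the 8 untreated arrays fitted, and without 16HBE-WT replicate 2 or 3 or 16HBE-ex14 replicate 4 (-0.56 to -0.47). The most widely used readouts of ERK activity did not pass the test, with 0.49 ± 0.29 for DUSP6, 0.11 ± 0.41 for EGR1, 0.21 ± 0.29 for SPRY4 and 0.23 ± 0.16 for ETV5. The median of the 26 genes was 0.21, against -0.02 over all probes tested. Relative to the median of all tested probes it was 0.16 to 0.23 with other scalings or normexp, and such ranges below are given in the same way. Within the EGF receptor family and its ligands 4 of 13 genes were called higher and none lower, with a median of 0.39 (relative 0.34 to 0.49 with other scalings or normexp). They were the receptor EGFR (0.79 ± 0.11) and the ligands EREG, NRG1 and AREG. EREG read 0.70, 0.55, 0.70 and 1.05 in 16HBE-WT cells and 1.70, 1.66, 1.92 and 1.94 in 16HBE-ex14 cells (1.05 ± 0.13, adjusted p = 7.52e-05). NRG1, a ligand of ERBB3 and ERBB4, was higher on all 3 of its probes (0.86, 0.88 and 1.07), whereas ERBB2 and ERBB3 did not pass the test (0.27 ± 0.09 and -0.35 ± 0.12).

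The highest-ranking genes that were measurable in both groups belonged to unrelated functions. TMEM246, now named PGAP4, encodes a Golgi enzyme that modifies GPI anchors; it read -3.74, -3.01, -4.13 and -2.97 on 16HBE-WT arrays and 1.78, 1.88, 1.95 and 1.89 on 16HBE-ex14 arrays. This 40.5-fold difference (5.34 ± 0.27, adjusted p = 1.81e-08) was the largest of the genes measurable in both groups. CCL2, the chemokine that attracts monocytes, lay between -2.78 and -1.77 on the 16HBE-WT arrays and read 1.88, 2.26, 1.28 and 2.01 on the 16HBE-ex14 arrays, a 15.4-fold difference (3.94 ± 0.24, adjusted p = 1.15e-07). COL4A4, a chain of basement membrane collagen IV, was 12.4-fold higher (3.63 ± 0.23), and the growth factor IGF2 11.2-fold higher (3.49 ± 0.31). IGF2 ranged from -3.38 to -2.14 in 16HBE-WT cells and from 0.64 to 1.23 in 16HBE-ex14 cells, so that the groups stood well apart. With normexp these differences were smaller (3.30 for TMEM246, 2.80 for CCL2, 2.27 for COL4A4 and 2.05 for IGF2).

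ALDH1A1, which oxidises retinaldehyde to retinoic acid, was already abundant in 16HBE-WT cells (1.93, 1.36, 1.41 and 2.19) and read 4.41, 4.52, 4.44 and 4.54 in 16HBE-ex14 cells (2.75 ± 0.15, 6.73-fold, adjusted p = 4.45e-08). VIM, the intermediate filament protein vimentin, read -1.85, -1.67, -1.76 and -1.32 against 1.16, 0.89, 1.51 and 0.42 (2.65 ± 0.21, 6.26-fold, adjusted p = 1.58e-06; 1.82 with normexp). For both genes every 16HBE-ex14 array lay above every 16HBE-WT array. The remaining genes of this rank were the chromatin protein CDYL2 (3.26), the zinc finger gene ZNF469 (2.86), the cyclic AMP phosphodiesterase PDE4A (2.77), butyrylcholinesterase BCHE (2.66), the fatty acid carrier FABP5 (2.52), the pro-apoptotic BH3-only gene HRK (2.28), the calcium channel subunit CACNG6 (2.22) and the arginine-derived metabolism gene AGMAT (2.18). With normexp CDYL2 was at 2.22, ZNF469 at 1.46, PDE4A at 1.59, BCHE at 1.17, FABP5 at 1.38, HRK at 0.95 and AGMAT at 1.28. PDE4A was higher on 1 of its 3 probes only (2.77, against 0.20 and -0.29 on the others). FABP5 has processed copies elsewhere in the genome, and its 3 probes gave 2.52, 2.42 and 2.77.

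**Figure D2:**
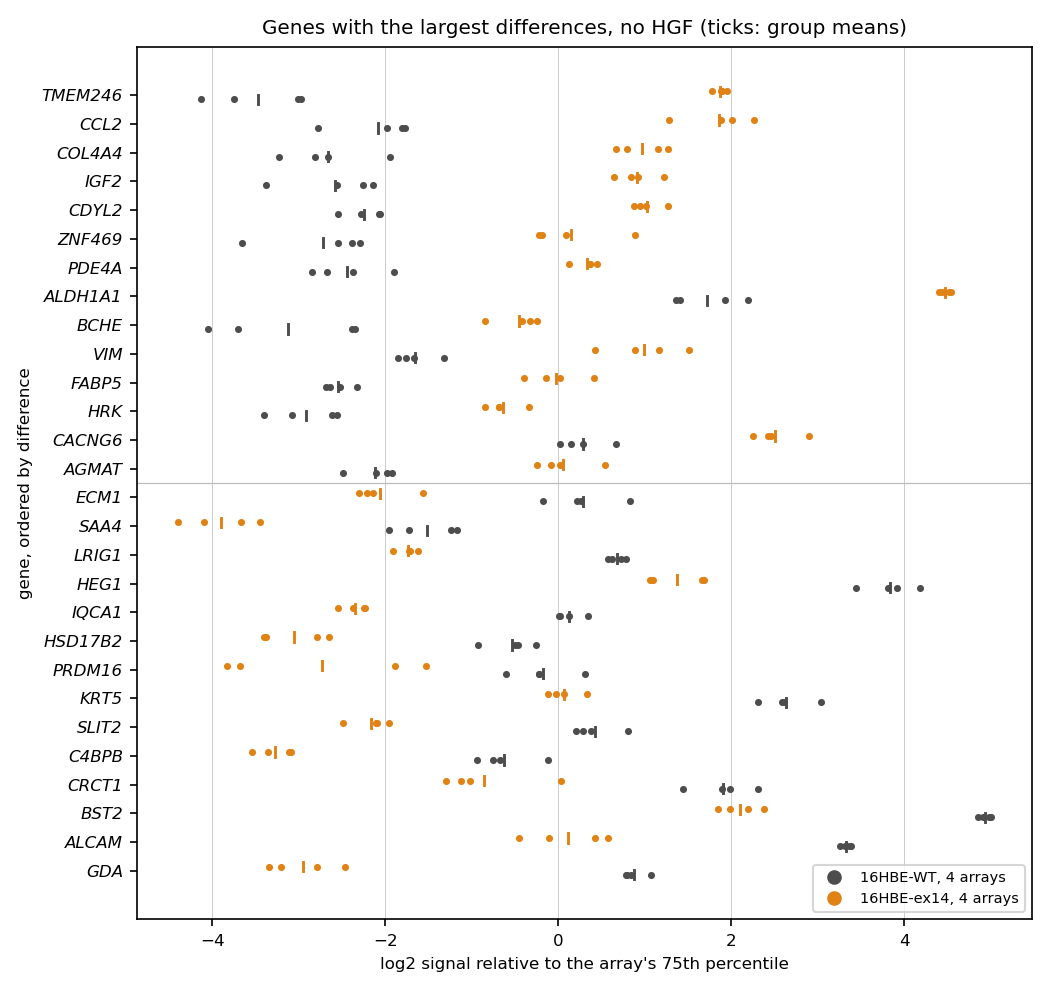
Log2 signal relative to the 75th percentile of the array (horizontal axis) for the 14 genes with the largest higher and the 14 with the largest lower difference that were measurable in both groups (vertical axis); each dot is 1 array, grey for 16HBE-WT and orange for 16HBE-ex14, and ticks are means of 4. No gene has overlapping groups, by the rule of choice; the means of TMEM246 lie 5.34 apart and the difference of GDA is -3.82.

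Among the genes lower in 16HBE-ex14 cells, GDA, guanine deaminase of purine catabolism, read 0.80, 1.08, 0.79 and 0.84 on 16HBE-WT arrays and -3.34, -3.20, -2.46 and -2.79 on 16HBE-ex14 arrays (-3.82 ± 0.17, 14.1-fold, adjusted p = 4.83e-09; -2.43 with normexp). ALCAM (CD166), an adhesion molecule of epithelial and activated immune cells, read 3.31, 3.26, 3.38 and 3.36 against -0.10, -0.45, 0.57 and 0.42 (-3.21 ± 0.21, 9.28-fold). BST2 (tetherin), an interferon-induced membrane protein that holds enveloped viruses on the cell surface, read 4.98, 5.01, 4.91 and 4.86 against 1.99, 2.38, 1.84 and 2.19 (-2.84 ± 0.12, 7.15-fold). All 3 were steady over the 16HBE-WT arrays and lay below that range on every 16HBE-ex14 array.

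KRT5, the type II keratin of basal epithelial cells, read 2.58, 2.31, 2.61 and 3.04 against -0.12, 0.33, -0.03 and 0.07 (-2.57 ± 0.19, 5.96-fold, adjusted p = 6.22e-07). SLIT2, a secreted guidance ligand of ROBO receptors, was 5.99-fold lower (-2.58 ± 0.18, and -1.77 with normexp), and the heart and vessel development gene HEG1 5.51-fold lower (-2.46 ± 0.19). The other genes of this rank were the cornified envelope gene CRCT1 (-2.76), the complement regulator subunit C4BPB (-2.65), the transcription factor PRDM16 (-2.55), the steroid dehydrogenase HSD17B2 (-2.52), IQCA1 (now DRC11, -2.47), LRIG1, the acute phase gene SAA4 (-2.38) and the matrix protein ECM1 (-2.34). With normexp C4BPB was at -1.33, HSD17B2 at -1.42, IQCA1 at -1.63, SAA4 at -1.01, ECM1 at -1.58 and CRCT1 at -2.17. PRDM16 was uneven, with 16HBE-ex14 arrays at -1.53, -3.68, -3.83 and -1.88 (adjusted p = 0.026), and its call was lost when any of 5 single arrays was left out. Its dimmer probe differed by -0.67 ± 0.31 and did not pass the test.

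Some genes were well above background on all 4 arrays of one group and none of the other, where only a lower bound of the fold of that probe can be given. For this bound each array of the lower group entered at its own reading or at its dimmest signal called above background, whichever was brighter. By its brightest probe, SLITRK6, a neuronal transmembrane protein, was at least 20.1-fold higher in 16HBE-ex14 cells and the GATA-type repressor TRPS1 at least 18.0-fold. TMTC2 was at least 11.2-fold higher, the insulin receptor substrate IRS1 at least 10.4-fold and the peroxidase PRDX2 at least 9.58-fold. The endoderm transcription factor FOXA2 was at least 17.4-fold higher. However, 3 of 4 16HBE-WT arrays read -4.20 to -3.98 for FOXA2, brighter than the dimmest signal called above background on the same array. These arrays entered the FOXA2 bound at their readings, although FOXA2 was not well above background on them. A second SLITRK6 probe was well above background on 3 of 4 16HBE-WT arrays and differed by only 0.89 ± 0.29, so the bound does not hold for the gene as a whole. A second TRPS1 probe was likewise well above background on all 4 16HBE-ex14 arrays and on no 16HBE-WT array. In the other direction, the WNT inhibitor APCDD1 was at least 17.7-fold lower, the WNT ligand WNT5A at least 13.7-fold, the endoderm factor SOX17 at least 12.0-fold, PDZK1 at least 6.49-fold, the gastric mucosal protein GKN1 at least 5.36-fold and FDCSP at least 5.29-fold. TRPS1 read -0.37, 0.09, -0.15 and 0.01 on the 16HBE-ex14 arrays and between -6.40 and -6.03 on the 16HBE-WT arrays, where it was not well above background. WNT5A read -0.75, -0.82, -0.98 and -0.42 on the 16HBE-WT arrays and between -5.44 and -4.32 on the 16HBE-ex14 arrays. FOXA2 and SOX17, both regulators of endoderm, thus stood in opposite groups. With normexp the differences were 1.78 for FOXA2, -1.96 for APCDD1 and -1.64 for WNT5A. Over all alternatives the smallest were 2.00 for SLITRK6, 1.79 for TRPS1, 1.43 for TMTC2, 1.20 for IRS1 and 1.13 for PRDX2. In the other direction they were -1.39 for SOX17, -0.95 for PDZK1, -0.83 for GKN1 and -0.84 for FDCSP. In the group below background WNT5A reached -4.32 and PDZK1 -4.17, also brighter than the dimmest signals called above background on the 16HBE-ex14 arrays. These readings entered their bounds. SLITRK6 reached -4.37 on 16HBE-WT replicate 4, level with the dimmest such signal of that array.

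Of 21 tested genes of basal epithelium, 6 were called lower (28.6%) and 1 higher; the 6 were KRT5, the hemidesmosomal collagen COL17A1 (-1.83 ± 0.26), KRT14 (-1.74 ± 0.22), KRT6A (-1.62 ± 0.27), KRT17 (-1.61 ± 0.20) and KRT16 (-0.70 ± 0.16). KRT5 and KRT14 pair to form the filaments of basal cells, and KRT6A, KRT16 and KRT17 are keratins of activated or injured epithelium. TP63, the transcription factor that defines basal cells, read near the limit of detection in both groups (means -3.72 and -3.79) and did not pass the test, nor did DSG3, LAMB3 or ITGB4. KRT6B was the gene called higher, but it was well above background on only 2 of the 8 untreated arrays. It was tested because arrays with HGF also counted in the filter. Its sequence is close to that of KRT6A, and its sign turned with normexp background correction (-0.09). The KRT6B call was lost with no filter and with only the 8 untreated arrays fitted. It was also lost without 16HBE-WT replicate 1 or 3 or 16HBE-ex14 replicate 1 or 3 (0.85 to 1.11). COL17A1 was lower on its brightest probe, and its second was not called (0.10 ± 0.20). The median of the 21 genes was -0.28 (relative -0.37 to -0.10 with other scalings or normexp). None of 7 tested simple epithelial keratins was called: KRT18 (-0.01 ± 0.10), KRT8 (0.19 ± 0.15) and KRT7 (0.13 ± 0.09) did not pass the test, whereas KRT19 (-0.58 ± 0.09, adjusted p = 0.0004), KRT81 (-0.50 ± 0.08) and KRT80 (0.54 ± 0.10) passed on p but lay inside the fold limit. With quantile normalization 1 of the 7 was called lower, and with scaling to medians or E1A or with normexp 1 was called higher.

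Junction genes were called in 3 of 29 cases, with TJP1 (ZO-1, 0.85 ± 0.09) and CLDN3 (0.79 ± 0.08) higher and CLDN2, the pore-forming claudin, lower (-0.84 ± 0.17). CDH1 (E-cadherin) was not called (0.37, adjusted p = 0.074). Of 21 tested mesenchymal genes and EMT transcription factors, 2 were higher and 4 lower. VIM and TWIST1 were higher, TWIST1 only narrowly (0.77 ± 0.25, adjusted p = 0.043), well above background on 3 of 4 16HBE-WT arrays and not called with normexp (0.10), with no filter, with only the 8 untreated arrays fitted, or without 16HBE-WT replicate 1 or 2 or 16HBE-ex14 replicate 1, 2 or 3 (0.55 to 0.79). FN1 (fibronectin), SNAI2 (Slug), TGFBI and TWIST2 were lower, by -1.34, -1.14, -1.13 and -0.73. FN1 read -1.04, -0.79, -0.17 and -0.95 in 16HBE-WT cells and -2.21, -1.92, -2.21 and -1.98 in 16HBE-ex14 cells. Vimentin and fibronectin, both used as markers of the mesenchymal state, thus differed in opposite directions, and the median of the list was -0.31 (relative -0.36 to -0.12 with other scalings or normexp). Of 29 secretory and ciliated airway genes 17 could be tested. The iron-binding defence protein LCN2 was higher (1.45 ± 0.19) and the protease inhibitor SLPI lower (-1.69 ± 0.29). With normexp LCN2 was at 0.70, and SLPI was at -0.56 and not called.

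**Figure D3:**
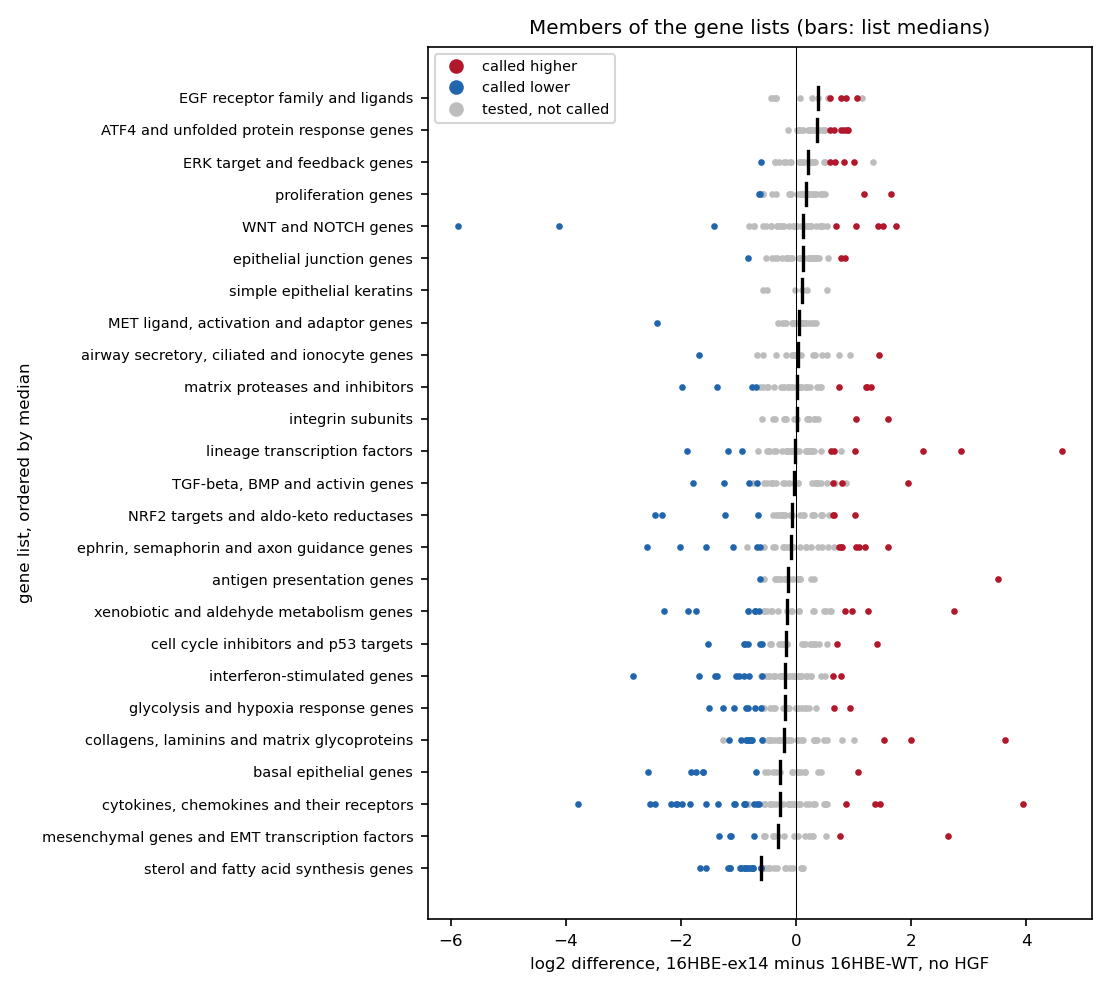
Log2 difference between 16HBE-ex14 and 16HBE-WT cells without HGF (horizontal axis) for the tested members of 25 gene lists (vertical axis, ordered by median); each dot is 1 gene by its brightest probe, red called higher, blue called lower, grey not called, and black bars are list medians. Sterol and fatty acid synthesis genes have the lowest median, -0.61, and the EGF receptor family the highest, 0.39.

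Genes of the matrix and of its turnover differed in both directions. Of 42 tested collagens, laminins and matrix glycoproteins, 3 were higher and 9 lower (21.4%), with 4 and 5 under scaling to medians or normexp. COL4A4, FBLN1 (fibulin-1) and NID1 (nidogen-1, 1.53) were higher, and MATN2, COL9A2, COL7A1, LAMA2, COL4A1, HSPG2 (perlecan), COL9A3, NID2 and TNC (tenascin) lower, between -1.16 and -0.60 (a second probe of MATN2 gave -0.04 and was not called). FBLN1 read 1.98, 1.80, 2.26 and 2.03 in 16HBE-WT cells and 3.93, 4.15, 3.84 and 4.15 in 16HBE-ex14 cells (2.00 ± 0.12, adjusted p = 1.15e-07). The collagen IV chains COL4A4 and COL4A1, and the nidogens NID1 and NID2, each differed in opposite directions. Of 33 tested proteases and inhibitors, 4 were higher and 4 lower. The kallikreins KLK6 (1.30 ± 0.10) and KLK7 (1.24 ± 0.21), the serine protease HTRA1 (1.21) and the urokinase gene PLAU (0.76) were higher. The tissue plasminogen activator gene PLAT was lower (0.29, 0.71, 0.83 and 0.38 against -1.41, -1.29, -1.48 and -1.52; -1.98 ± 0.15, adjusted p = 1.23e-06), as were ADAMTS1 (-1.37), TIMP1 (-0.76) and MMP14 (-0.70). The 2 activators of plasminogen thus differed in opposite directions. Among 19 tested integrin subunits, ITGA10 (1.04) and ITGA1 (1.61) were called higher. ITGA1 was well above background on only 1 of the 8 untreated arrays, and its sign turned with normexp (-0.11). It was tested because arrays with HGF also counted in the filter. ITGA10 was not called with normexp (0.23) or when only the 8 untreated arrays were fitted.

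Of 50 tested cytokines, chemokines and their receptors 18 were called lower (36.0%) and 4 higher, with 15 to 19 called lower when any single array was left out and 15 to 18 with other scalings or normexp. Of the interleukin-1 family, IL1RN, the receptor antagonist, fell from -0.82, -0.78, -0.95 and -0.80 to -4.67, -4.62, -4.17 and -5.03 (-3.79 ± 0.23, adjusted p = 1.29e-07; -1.53 with normexp), although a second probe was not called (-0.07 ± 0.24). IL1B (-2.17 ± 0.27), IL1RL1 (-2.08 ± 0.39), IL1A (-1.97 ± 0.27) and the decoy receptor IL1R2 (-1.08 ± 0.13) were lower too; these 5 genes all lie on chromosome 2. IL1RN, IL1RL1, ACKR3 and PTGS2 were well above background on 1 of 4 16HBE-ex14 arrays and CSF3 on 2, so that their lower levels are near the detection limit. The scavenging chemokine receptor ACKR3 (-2.53), the granulocyte factor CSF3 (-2.46), the prostaglandin synthase PTGS2 (-2.06), the acute phase genes SAA1 (-1.84) and SAA2 (-1.36), the death ligand TNFSF10 (-1.57), the complement genes C3 (-1.06) and CFB (-0.72), IL32 (-0.90), IL11 (-0.88), IL7R (-0.88), the NF-kB inhibitor TNFAIP3 (-0.68) and IL15 (-0.65) completed the lower group. SAA1 and SAA2 are nearly identical in sequence and may share signal. CCL2, PTX3 (1.45 ± 0.32), IL20RB (1.37) and TNF (0.87) were higher. The median of the list was -0.28 (relative -0.26 to -0.13 with other scalings or normexp). It was -0.26 after the median of each gene's chromosome was subtracted.

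Interferon-stimulated genes were called lower in 9 of 45 cases (20.0%) and higher in 2. Besides BST2 the lower genes were MX2 (-1.68 ± 0.19), IFI44 (-1.41 ± 0.19), RSAD2 (viperin, -1.38 ± 0.17), GBP1 (-1.04), IFITM1 (-0.99), IFI27 (-0.90), CMPK2 (-0.82) and IFI6 (-0.59). Among the genes that did not pass the test were MX1 (-0.18 ± 0.17), IFIT1 (0.18 ± 0.22) and OAS3 (-0.12 ± 0.13). IFIT5 (0.78 ± 0.16) and IFIT2 (0.64 ± 0.11), neighbours on chromosome 10, were higher, although the IFIT2 call was lost with quantile normalization (0.55) and without 16HBE-ex14 replicate 4 (0.58). A dimmer probe of MX2 was not called (0.36 ± 0.24). The list median was -0.19, and with normexp it lay only -0.01 from the median of all tested probes. The core letters of the interferon-stimulated response element, GAAA and again GAAA after any 2 bases, on either strand, occurred in the 250 bases before the start of 6 of the 8 lower genes found in the RefSeq promoter table (GRCh38.p14; the first start listed for a gene), in 1 of 1 higher gene (IFIT5) and in 13 of 25 genes not called, against 3.07% of 27305 promoters of that length. The letters were thus present in genes of every call. Stretches upstream of the start are shown for 4 lower genes, for IFIT5 (higher) and for ISG15 (-0.37 ± 0.12, not called), 5′ to 3′ on the gene's strand, with matches on either strand in capitals; overlapping matches run together.
BST2 (chr19:17405690-17405790, minus strand): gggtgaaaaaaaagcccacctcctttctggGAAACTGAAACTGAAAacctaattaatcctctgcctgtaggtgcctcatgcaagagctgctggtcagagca
IFI44 (chr1:78649688-78649788, plus strand): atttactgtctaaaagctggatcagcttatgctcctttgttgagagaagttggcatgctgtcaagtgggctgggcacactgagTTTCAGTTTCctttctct
IFI6 (chr1:27672278-27672378, minus strand): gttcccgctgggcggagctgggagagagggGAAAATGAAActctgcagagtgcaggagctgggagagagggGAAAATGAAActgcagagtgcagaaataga
IFITM1 (chr11:313939-314039, plus strand): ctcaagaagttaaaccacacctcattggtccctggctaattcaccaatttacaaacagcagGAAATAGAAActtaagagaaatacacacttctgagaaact
IFIT5 (chr10:89414467-89414567, plus strand): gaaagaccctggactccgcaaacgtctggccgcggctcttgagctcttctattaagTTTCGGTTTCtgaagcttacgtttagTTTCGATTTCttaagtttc
ISG15 (chr1:1013354-1013454, plus strand): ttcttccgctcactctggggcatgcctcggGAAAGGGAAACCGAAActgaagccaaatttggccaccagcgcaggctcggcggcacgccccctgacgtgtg

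Antigen presentation genes differed little: 1 of 25 was higher and 1 lower. CD74, the invariant chain of MHC class II, was not well above background on any 16HBE-WT array and read -2.28, -1.64, -1.30 and -1.41 on the 16HBE-ex14 arrays, at least 6.16-fold higher. HLA-F was lower (-0.62 ± 0.09), a call lost with scaling to medians or E1A and with normexp (-0.55 to -0.48), and its probes may share signal with other class I genes.

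Sterol synthesis was the list with the highest share of calls in one direction. Of its 31 genes, all tested, 17 were lower (54.8%) and none higher, with a median of -0.61 and 27 of 31 differences below 0; other scalings or normexp left 14 to 17 lower and leaving out any array 15 to 19. Relative to the median of all tested probes, the list median was -0.67 to -0.39 with other scalings or normexp. It was -0.68 after subtraction of each chromosome's median, and the 17 genes lay on 12 chromosomes. Cells make cholesterol from acetyl-CoA through mevalonate, squalene and lanosterol, and the SREBP transcription factors switch on most of these genes when membrane sterol is low. In order of the pathway, the lower genes included HMGCS1 (-1.18 ± 0.17), MVK (-0.77), MVD (-0.61), IDI1 (-0.89), SQLE (-0.96), LSS (-0.91), MSMO1 (-1.14 ± 0.12), HSD17B7 (-0.86), SC5D (-0.74) and DHCR7 (-0.82). FDPS and CYP51A1 lay inside the fold limit (-0.58 ± 0.13 and -0.45 ± 0.11), FDPS only just, and FDFT1 (-0.38 ± 0.14) and NSDHL (-0.19 ± 0.10) did not pass the test.

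A regulator of the same pathway differed in the same direction. INSIG1, which retains SREBP in the endoplasmic reticulum and is itself an SREBP target, read 3.23, 3.13, 3.22 and 3.63 in 16HBE-WT cells and 1.38, 2.00, 1.63 and 1.53 in 16HBE-ex14 cells (-1.67 ± 0.14, 3.17-fold, adjusted p = 2.55e-06). The transcription factor genes SREBF1 (0.12 ± 0.12) and SREBF2 (-0.10 ± 0.11) were not called. On the fatty acid side SCD, the desaturase (-1.15 ± 0.25), and ACSS2 (-0.96 ± 0.14) were lower; FASN and ACLY (-0.49 ± 0.13 and -0.54 ± 0.12) were inside the fold limit, and ACACA, ELOVL5, ELOVL6, FADS1, FADS2 and STARD4 did not pass the test. Each group's arrays did not overlap for 17 of the 31 genes.

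CCAAT boxes, bound by NF-Y, a partner of SREBP at many of these promoters, occurred as CCAAT on either strand in the 250 upstream bases of 11 of the 12 lower sterol and fatty acid genes present in the table and of 6 of the 12 not called, against 33.0% of all 27305 promoters. Upstream stretches of 3 genes that were lower by more than 1 log2 unit are shown in the same form, with CCAAT or its reverse complement ATTGG in capitals.
INSIG1 (chr7:155297678-155297778, plus strand): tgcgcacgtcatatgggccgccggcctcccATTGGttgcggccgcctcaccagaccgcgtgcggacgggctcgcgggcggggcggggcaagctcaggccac
HMGCS1 (chr5:43313497-43313597, minus strand): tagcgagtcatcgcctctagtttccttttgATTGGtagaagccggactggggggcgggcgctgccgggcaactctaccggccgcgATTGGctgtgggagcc
MSMO1 (chr4:165327454-165327554, plus strand): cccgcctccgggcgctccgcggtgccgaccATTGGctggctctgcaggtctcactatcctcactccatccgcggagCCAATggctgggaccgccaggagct

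Among 26 tested glycolysis and hypoxia genes 7 were lower (26.9%) and 2 higher. The lower genes were NDRG1 (-1.52 ± 0.22), LOXL1 (-1.27 ± 0.12), the prolyl hydroxylase EGLN3 (-1.08), PFKFB4 (-0.86), hexokinase HK2 (-0.83), adrenomedullin ADM (-0.72) and ANKRD37 (-0.61). NDRG1 read 3.30, 3.92, 3.85 and 3.64 against 1.96, 2.55, 2.38 and 1.75. The isoenzymes ALDOC (0.94) and ENO2 (0.66) were called higher, but neither was called with normexp (0.03 and 0.52), and the ENO2 call was also lost with no filter (0.66) and when 16HBE-WT replicate 1, 2 or 4 or 16HBE-ex14 replicate 1, 2 or 4 was left out (0.59 to 0.68). NRF2 targets and aldo-keto reductases were split, 3 higher and 4 lower of 29, with AKR1C3 (at least 4.71-fold) and AKR1B10 (at least 1.94-fold) not well above background on any 16HBE-ex14 array (AKR1B10 was -0.53 and not called with normexp), and the transporter ABCC3 (1.02 ± 0.14) and the epoxide hydrolase EPHX1 (0.67 ± 0.14) higher. Of 29 tested genes of xenobiotic and aldehyde metabolism 4 were higher, led by ALDH1A1 and GSTM3 (1.25 ± 0.16), and 7 lower, led by GSTM2 (at least 2.93-fold by its brightest probe) and GSTM4 (-1.87 ± 0.20). A second GSTM2 probe differed by only -0.89 ± 0.29, and the brightest one by -0.57, not called, with normexp. The counts of this list were 7 higher and 4 lower with scaling to medians and 7 and 5 with E1A, scalings that move all probes alike and leave the relative median of the list at -0.13, and 3 and 2 with normexp; without 16HBE-WT replicate 1 or 4 it was 4 and 4. The GSTM genes are close copies on chromosome 1 whose probes may share signal.

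Genes of the ATF4 and unfolded protein response were called higher in 6 of 27 cases (22.2%) and lower in none; 26 of the 27 differences were above 0 and the median was 0.36 (relative 0.29 to 0.55 with other scalings or normexp). DDIT3 (CHOP), a transcription factor of prolonged stress, read 0.48, 0.46, 0.67 and 0.68 in 16HBE-WT cells and 1.52, 1.25, 1.41 and 1.69 in 16HBE-ex14 cells (0.90 ± 0.15). The glutathione-degrading enzyme CHAC1 (0.89 ± 0.13, with 0.33 ± 0.15 and no call on a second probe), DDIT4, which restrains mTORC1 (0.83), HERPUD1 (0.79), the pseudokinase TRIB3 (0.67) and the arginine transporter SLC7A1 (0.59) were the others, whereas the chaperone HSPA5 (0.23 ± 0.25) and ATF4 itself (0.20 ± 0.12) did not pass the test. The stress cytokine GDF15, placed in the list of cell cycle inhibitors and p53 targets, was also higher (5.89, 5.92, 6.05 and 5.89 against 7.36, 7.44, 7.07 and 7.56; 1.42 ± 0.16, adjusted p = 4.5e-05). In that list CDKN1B (p27) was higher (0.72 ± 0.08) and 6 of 28 genes were lower, among them SESN1 (-1.53 ± 0.20) and CDKN1A (p21, -0.91 ± 0.26). With scaling to medians or to E1A or with normexp, 3 genes of the list were higher and 3 lower. With an array left out, 4 to 6 were lower. The CDKN1A call was lost with scaling to medians or to E1A (-0.77 and -0.79). It was also lost without 16HBE-WT replicate 3 or 4 or 16HBE-ex14 replicate 1 or 2 (-0.85 to -0.80). Proliferation genes were called in 4 of 30 cases: CCND2 (cyclin D2, 1.65 ± 0.23) and the replication licensing factor CDT1 (1.19 ± 0.14) were higher, and RRM2 (-0.64) and CDC20 (-0.62) lower, the last 2 only with the 75th percentile or quantile scaling. The RRM2 call was also lost without 16HBE-WT replicate 1 or 4 (-0.58 and -0.55). That of CDC20 was lost without 16HBE-WT replicate 3 or 16HBE-ex14 replicate 1 (-0.57 in both cases). Counts of proliferation genes were 5 higher and 0 lower with scaling to medians and 4 and 0 with E1A. They were 2 and 0 with normexp and 2 and 4 with quantile normalization.

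Developmental signalling genes were called in both directions. Of 45 tested WNT and NOTCH genes 5 were higher (11.1%) and 3 lower (6.67%): WNT6 (1.74 ± 0.20), TCF4 (1.51 ± 0.18), the receptor FZD1 (1.42), the antagonist NKD2 (1.04) and the co-receptor LRP6 (0.70) were higher, while APCDD1, WNT5A and RNF43 (-1.43) were lower. The symbol TCF4 belongs to an E-protein gene and not to the WNT effector once given that name. That effector is TCF7L2, a separate member of the list, so the count of higher genes includes 1 that is not a core WNT or NOTCH gene. Of 29 tested TGF-beta, BMP and activin genes 3 were higher and 4 lower. The inhibitory SMAD6 (1.95 ± 0.19) and the receptor BMPR1A (0.81 ± 0.08) were higher. The activin subunit INHBB (-1.79 ± 0.30) and the BMP target ID2 (-1.25 ± 0.16) were lower. With normexp SMAD6 was at 0.48 and not called, and INHBB was at -0.64. Of 36 tested guidance genes 7 were higher (19.4%) and 6 lower (16.7%). These counts were 9 and 4 with scaling to medians, 8 and 4 with E1A and 5 and 3 with normexp. The ligand NTN1 (netrin-1, 1.59 ± 0.17) was higher, and SLIT2 and the ephrin receptor EPHB3 (-2.01 ± 0.21) were lower. EPHB3 read 0.30, 0.26, 0.63 and 0.06 in 16HBE-WT cells and -1.64, -1.31, -2.34 and -1.50 in 16HBE-ex14 cells. Of 40 tested lineage transcription factors 6 were higher (15.0%) and 3 lower. LHX2, well above background on 1 of 4 16HBE-WT arrays, read -3.92, -4.61, -4.26 and -3.34 against -1.14, -1.26, -1.42 and -0.82 (2.88 ± 0.25, and 0.84 with normexp). The endoderm factor GATA6 read -0.40, -0.37, -0.05 and -0.19 against -2.47, -2.26, -1.82 and -2.05 (-1.90 ± 0.15, adjusted p = 1.51e-06).

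Of the noncoding transcripts with the largest differences, CCND2-AS1 (1.91 ± 0.21), next to CCND2, and VLDLR-AS1 (1.62 ± 0.16) were higher, and ZNF793-AS1 (-1.28 ± 0.17) was lower. SPATA3-AS1 was lower on 1 probe (-2.68 ± 0.52) and not on its other 2 (-0.02 and 0.69).

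The 8 arrays with HGF hold none of the untreated samples and so measure the same pair of cell lines again. The filter and the estimate of spread, however, were shared by all 16 arrays. With HGF 3739 probes (10.8%) were called between 16HBE-ex14 and 16HBE-WT cells. Of the 3263 probes called without HGF, 3193 (97.9%) differed in the same direction with HGF and 2176 (66.7%) were also called, against 77.4% and 10.6% of all tested probes and 75.2% and 4.73% of those not called without HGF, while 1 was called in the opposite direction, a probe of TMSB4XP1 (-1.17 without and 1.21 with HGF). Differences with HGF were a median of 0.907 times those without. When the untreated and the treated arrays were fitted apart, 2902 probes were called without HGF and 1887 of them again with HGF. All 111 called genes named by rule kept their direction. Those not called again were IFIT5, IFIT2, EPHX1, AKR1B10, GSTM3, GSTM2, CDKN1A, ALDOC, ENO2 and SEMA3A. The call of SEMA3A without HGF (1.20) was itself lost when any of 7 single arrays was left out, and with no filter. Of the list of sterol and fatty acid genes 16 were lower with HGF and none higher, and of the cytokine list 17 were lower and 7 higher.

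**Figure D4:**
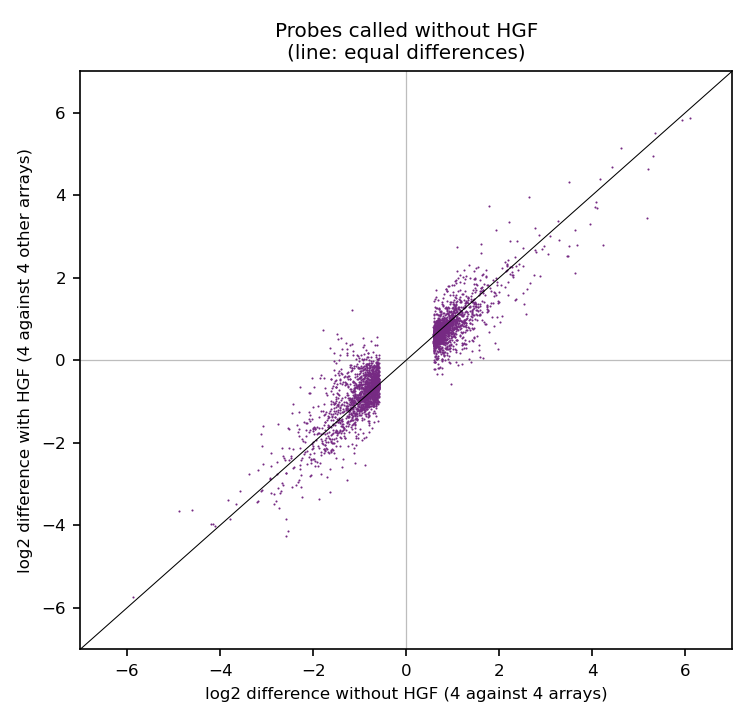
Log2 difference between the cell lines with HGF (vertical axis) against the difference without HGF (horizontal axis) for the probes called without HGF and outside chromosome Y, 1 point per probe; the diagonal marks equal differences. In 97.9% of cases both differences have the same sign.

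A change of the genotype difference with HGF was tested directly as the interaction in limma. It was called for 0 of 34600 probes (smallest adjusted p = 0.20), for 4 with a trended and robust prior and for 4 with normexp, and for 11 without 16HBE-ex14 replicate 3, and 1586 probes had an unadjusted p below 0.05, where 1730 is 5% of those tested. KRT5 and VIM, picked after their values were seen, are given as levels in each condition, without a call. Mean KRT5 was 2.64 in 16HBE-WT cells and 0.06 in 16HBE-ex14 cells without HGF, and 2.01 and -2.25 with it. Mean VIM was -1.65 and 1.00 without HGF, and -0.64 and 3.30 with it. The keratin was thus lowest, and vimentin highest, in 16HBE-ex14+HGF cells.

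Called probes were not spread evenly over the chromosomes. On chromosome 16, 282 of 1574 tested probes (17.9%) were higher and 30 (1.91%) lower, with a median difference of 0.26 over all probes, called or not. On chromosome 10, 12.8% were higher and 2.38% lower (median 0.17), and on chromosome 12, 6.84% and 2.62% (median 0.07). In the other direction, 12.0% of probes on chromosome 6 were lower and 1.66% higher (median -0.20), with 10.5% and 1.37% on chromosome 21 (-0.19), 7.77% and 1.68% on chromosome 2 (-0.16), and 7.56% and 2.58% on chromosome 1 (-0.13). On chromosome 7, which carries MET, the shares were 3.84% higher and 4.07% lower (median 0.02). The same order was seen with HGF, with medians of 0.25 on chromosome 16 and -0.19 on chromosome 6. In bins of 10 megabases (hg19) with at least 20 tested probes, 9 of 299 had a median above 0.3 and 9 one below -0.3. The lowest were neighbours on the long arm of chromosome 6, with -0.42, -0.47 and -0.53 in the 3 bins from 80 to 110 Mb. Of the higher bins, 5 adjoined each other on chromosome 10 from 50 to 100 Mb (0.33 to 0.37), and the others were chromosome 16 at 70 to 80 Mb (0.41, the highest), 40 to 50 Mb (0.37) and 0 to 10 Mb (0.34) and chromosome 12 at 0 to 10 Mb (0.31). On chromosome 6 the bins from 110 to 140 Mb had medians of -0.35, -0.34 and -0.33. The genes placed next are examples, and other genes called above lie in shifted bins too. BMPR1A, DDIT4, PLAU, IFIT2 and IFIT5 (all higher) lie in the chromosome 10 block. SESN1 (lower) lies in the bins of chromosome 6 from 80 to 110 Mb. CCND2, CCND2-AS1 and ENO2 (higher) lie in the bin of chromosome 12, and IL32, which was lower, in the first bin of chromosome 16. CDYL2 (higher) lies on chromosome 16 at 80 to 90 Mb, where the median was 0.295. In contrast, VIM, also on chromosome 10, lies in a bin with a median of 0.00 and CDKN1A, also on chromosome 6, in one with -0.14. The part of position in the difference of any 1 gene was not tested.

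**Figure D5:**
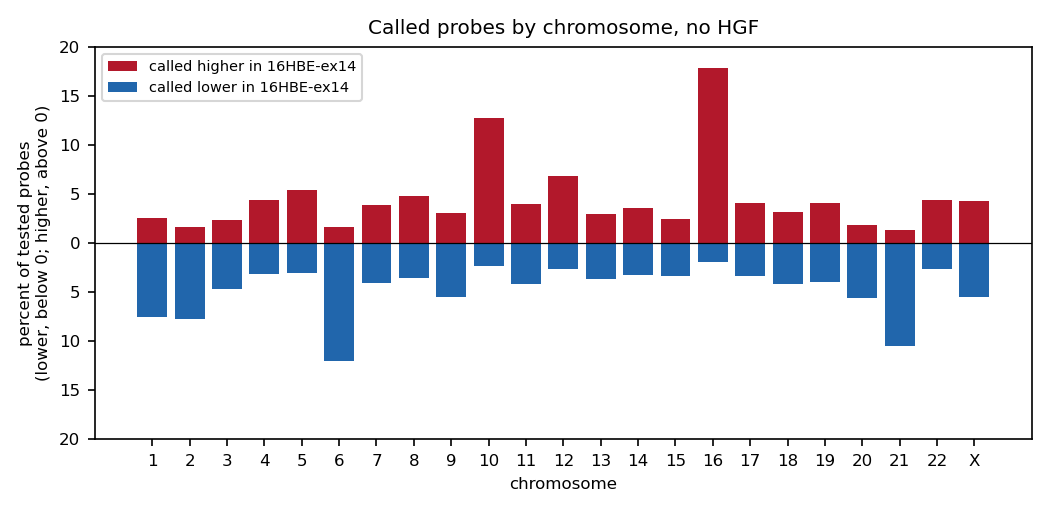
Percent of tested probes called higher (red, above 0) and lower (blue, below 0) in 16HBE-ex14 cells without HGF (vertical axis) for each chromosome except Y (horizontal axis). Chromosome 16 has the highest share of higher probes, 17.9%, and chromosome 6 the highest share of lower ones, 12.0%.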

How the data were processed

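RNA from 4 conditions with 4 arrays each was measured on 1-colour Agilent arrays. The authors extracted the signals from the scans with Feature Extraction 10.7.3.1. The deposited intensity values (processed signal) are background-subtracted against a fitted surface, and the deposited series table held the same values. Here log2 of the intensity minus each array's 75th percentile was taken, controls and outlier-marked spots were dropped, and repeated spots of each of the 58201 probes were reduced to their mean. Those over background (the scanner's own call) on 4 or more of 16 arrays were fitted in limma 3.58.1 (R 4.3.3) with 1 mean per condition, and p-values were adjusted by Benjamini-Hochberg over all 34600 tested probes. A call required an adjusted p below 0.05 and a fold above 1.5. Errors of differences are limma standard errors, and the number of arrays limits the precision. No source states which weekly culture an array holds, so p-values measure the spread between these arrays, which may in part be technical. Genes were represented by their brightest probe. Gene symbols are those of the array files, and 24238 accessions were matched to RefSeq, 22921 with the same symbol.

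The genes named were MET and HGF, the 14 largest higher and 14 largest lower differences measurable and not overlapping in both groups, the 6 largest bounds in each direction, up to 2 called members per direction of each list, and 2 noncoding transcripts per direction. Further list members are named where a list is given in full or as examples chosen after their values were seen. The comparison itself follows the labels, but it, the gene lists and the genes named were chosen with earlier results of these data known. Alternatives covered background correction, scaling, filters, slide, replicate block, the prior, the fold limit and leaving out each array. Fits were tested on simulated data. A few members of the lists are counted but not reported here by name.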

Additional observations from a re-analysis of the deposited data

Results flagged for a closer look

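In 228 groups of 4 arrays of named genes, 9 held 1 array far from the other 3 by Dixon's ratio (gap over range, against its 95% critical value), where chance gives about 1 in 20. SLITRK6 read -4.37 on 16HBE-WT replicate 4, against -6.45 to -6.33 on the other 3 arrays (ratio 0.941). FOXA2 read -6.22 on 16HBE-WT replicate 1, against -4.20 to -3.98 on the other 3 arrays (ratio 0.901). APCDD1 read -5.21 on 16HBE-ex14 replicate 1, against -6.72 to -6.55 on the other 3 arrays (ratio 0.888). PDZK1 read -4.17 on 16HBE-ex14 replicate 4, against -4.53 to -4.48 on the other 3 arrays (ratio 0.850). GKN1 read -6.36 on 16HBE-ex14 replicate 4, against -4.49 to -4.43 on the other 3 arrays (ratio 0.969). KRT6B read -5.49 on 16HBE-WT replicate 3, against -5.12 to -5.06 on the other 3 arrays (ratio 0.858). COL17A1 read 0.03 on 16HBE-ex14 replicate 2, against -0.72 to -0.66 on the other 3 arrays (ratio 0.915). MATN2 read -1.65 on 16HBE-ex14 replicate 3, against -1.29 to -1.27 on the other 3 arrays (ratio 0.952). GSTM4 read -4.65 on 16HBE-ex14 replicate 1, against -4.01 to -3.90 on the other 3 arrays (ratio 0.846).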

How the results depend on the processing

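The count of 3263 called probes changed to 1488 with normexp background correction, 1429 within slide 1, 831 within slide 2, 6346 with no fold limit and 444 when limma's treat tested against the fold limit itself; slides hold fewer arrays. The 2176 probes also called with HGF became 1101, 850, 623, 4634 and 330 in the same order. With any array left out these counts ranged from 2913 to 3362 and from 1913 to 2176. The interaction gave 4 probes with normexp, 4 with a trended and robust prior, and 0 to 11 with an array left out (11 without 16HBE-ex14 replicate 3, 1 without 16HBE-WT+HGF replicate 3); the cause was not tested. It was not run with the filter or the fit restricted to the conditions compared, since it compares all 16 arrays. The difference in the 75th percentile ranged from 0.316 to 0.462 (past the threshold only without 16HBE-WT replicate 3) and that in the share of probes well above background from 0.0237 to 1.95 percentage points.

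Replicate numbers followed the row of the slide. With the row as a replicate block 3458 probes were called, 2249 of them also with HGF, and 0 for the interaction. Deviations of same-numbered arrays correlated at 0.204, 0.168, 0.0285 and 0.242, so the numbers were not taken to pair the samples.

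Of 2683 recomputed values of 112 named genes, 2499 kept direction and call, 181 lost the call and 3 turned sign, all with normexp: KRT6B (-0.0864), ITGA1 (-0.105) and SEMA3A (-0.104). For 58 of the 112 genes direction and call, though not size, were the same under every alternative run, MET, which was never called, among them. PRDM16 lost its call without 16HBE-WT replicate 1, 2 or 4 or 16HBE-ex14 replicate 2 or 3 (-2.56 to -2.18). Relative to all tested probes, list medians crossed 0 with another scaling or normexp for antigen presentation, NRF2, guidance, secretory, xenobiotic, cell cycle inhibitor and glycolysis genes. Signals below background limit the genes given as bounds. With normexp the calls of SMAD6 (0.48), PTX3 (0.47), SLPI (-0.56), SNAI2 (-0.57), CLDN2 (-0.43), EPHX1 (0.53) and ZNF793-AS1 (-0.56) were also lost, and WNT6 (0.72), CD74 (0.80), ACKR3 (-0.83), AKR1C3 (-0.75), GSTM4 (-0.64), INHBB (-0.64), SESN1 (-0.65), MX2 (-0.81) and LCN2 (0.70) were smaller but still called.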
